A study of Mus musculus with 3 samples.

Results

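The genes described here are the 56 of 14811 genes in an RNA-seq table of mouse kidney macrophages whose symbol is Rab followed by a number, with or without letters and a further number. By name and known role, 45 of the 56 encode Rab GTPases. Another 9 encode proteins that regulate Rabs or bind them (Rab3gap1, Rab3gap2, Rab3ip, Rab3il1 and Rab11fip1 to Rab11fip5), and 2 are antisense RNAs (Rab10os and Rab26os). A name of Rab GTPases therefore does not hold for 11 of the 56, and these 11 are described apart from the GTPases. Rab genes outside the table were not analysed here.

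The libraries came from 3 C57BL/6J mice in a single group, 1 library a mouse, and the labels name no genetic change. Each animal was given PBS, a plain salt solution, into a vein, and its kidneys were taken 1 h later. The tissue was digested with DNase, collagenase D and dispase for 30 min, and macrophages were sorted by flow cytometry. The labels do not name the sorting markers. Libraries were made with SMART-seq v4, an amplifying method for low RNA input. With no second group, the design allows levels within these cells, ratios between genes of one mouse, and the spread between mice. A level is given in normalised reads, the authors' read count divided by a factor for each library. Where genes are compared with each other, it is divided by the kilobases (kb) of the gene's exons.

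Depth ran from 50646558 to 56718534 reads a library. A single read equals 0.806, 0.555 and 0.705 normalised reads in mice 1, 2 and 3. A count of 0 allows up to 3 reads, or 2.42, 1.66 and 2.11 normalised reads. These limits cover counting error only, because amplified copies are not separate molecules. All 10 macrophage markers on a list (among them Adgre1, Csf1r and Cd68) were at 1000 or more normalised reads in every mouse, with sums of 862760, 622580 and 715569. Markers of other kidney cells were read as well, and differed between mice. The 6 proximal tubule markers summed to 6738, 27994 and 4000 normalised reads, with 1 of the 6 (Miox, at 2391, 7781 and 2940) at 1000 or more in every mouse, 4 at 10 or more in every mouse and Slc5a2 at 0 in mouse 3. Loop and distal tubule markers summed to 5872 in mouse 2 and at most 1140 in the other mice, and collecting duct markers to 24.2, 1046 and 93.0 in mice 1, 2 and 3, with 1 of 4 of the latter at 0 in every mouse. All 3 sums were highest in mouse 2, although Umod of the loop markers was highest in mouse 3 (998, against 598 in mouse 2). The 1 B cell marker analysed, Cd79b, had 227, 3940 and 6359 normalised reads. The 4 dendritic cell markers summed to 3960, 1333 and 1885, most of it Clec9a, at 1000 or more in every mouse. Of the others, Xcr1 had 534, 2.77 and 407, Flt3 4.84, 0 and 0, and Zbtb46 0, 0 and 16.2. Endothelial markers summed to 529.9, 133 and 1384, most of it Kdr in mice 1 and 3 (453 and 1345). Among them Pecam1 had 4.84, 0.555 and 0.705, and Tek was at 0 in every mouse. Fibroblast and pericyte markers summed to 951, 3.88 and 183. Podocyte markers summed to 35.5, 258 and 415. T cell markers summed to at most 4.23 and neutrophil markers to at most 19.4. Platelet markers summed to 6362 to 6987, most of it Pf4, with Itga2b at 0 in every mouse. In sorted cells measured in bulk, fewer cells of a type and less RNA per cell cannot be told apart.

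Rab GTPases are molecular switches that give a membrane its identity. Loaded with GTP by an exchange factor, a Rab sits on its membrane by lipid anchors and recruits effectors, which move, tether and fuse vesicles. A GTPase-activating protein ends the cycle, and GDI draws the inactive Rab back into the cytosol. In macrophages this family runs the path from the engulfed particle through early and late phagosome to the lysosome, the return of receptors to the surface, and the secretion of cytokines.

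The highest Rab levels in these cells belonged to GTPases of late endosomes, of recycling and of the step from endoplasmic reticulum to Golgi, and to Rab20 of early endosomes. Per kb of summed exons the highest means over 3 mice belonged to Rab7 (2276 ± 1194, SD), Rab20 (2020 ± 2731), Rab11a (1999 ± 663), Rab9 (1837 ± 1904), Rab29 (1772 ± 1666) and Rab2a (1731 ± 1087). Rab20 owed its place to 1 library: without mouse 1 its mean was 466 and its rank 15. Of the 45 GTPases, 9 were at 1000 or more normalised reads in every mouse, against 14.7% of all listed genes, and 26 were at 10 or more in every mouse, against 44.4%. Only Rab25 was at 0 in every mouse (6.59% of listed genes were), and 2 or 3 GTPases were at 0 in both of the remaining mice when 1 was left out. All 56 genes together took 0.254% ± 0.0268 of the reads (SD, n = 3), and the GTPases took 0.229% ± 0.0352.

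To ask which Rabs stand above or below a typical gene of the same library, each level per kb was set against the median over all genes tested, on the log2(value + 1) scale (limma, Benjamini-Hochberg adjustment over 13792 genes, threshold 0.05). Of the 55 members tested, 20 were above the median, where 23.5% of all genes tested were, and 6 were below it, where 17.3% were. The remaining 29 did not pass. Among the 44 GTPases tested, 19 were above and 5 below, and their median difference was 1.17 on the log2 scale against -0.49 over all genes tested. These counts rest on what a typical gene is taken to be. Set against the median of genes at 10 or more in every mouse, 6 members were above and 13 below, and 10.6% and 27.4% of all genes were. The 6 above were Rab7, Rab7b, Rab9, Rab11a, Rab14 and Rab2a, none of them a Rab of early endosomes or of exocytosis. The counts by role given below use the first median, with its 23.5% above and 17.3% below over all genes tested. Without mouse 3, 12 members and 11 GTPases were above, and 3 GTPases were below, where 18.3% and 12.1% of all genes were.

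**Figure D1:**
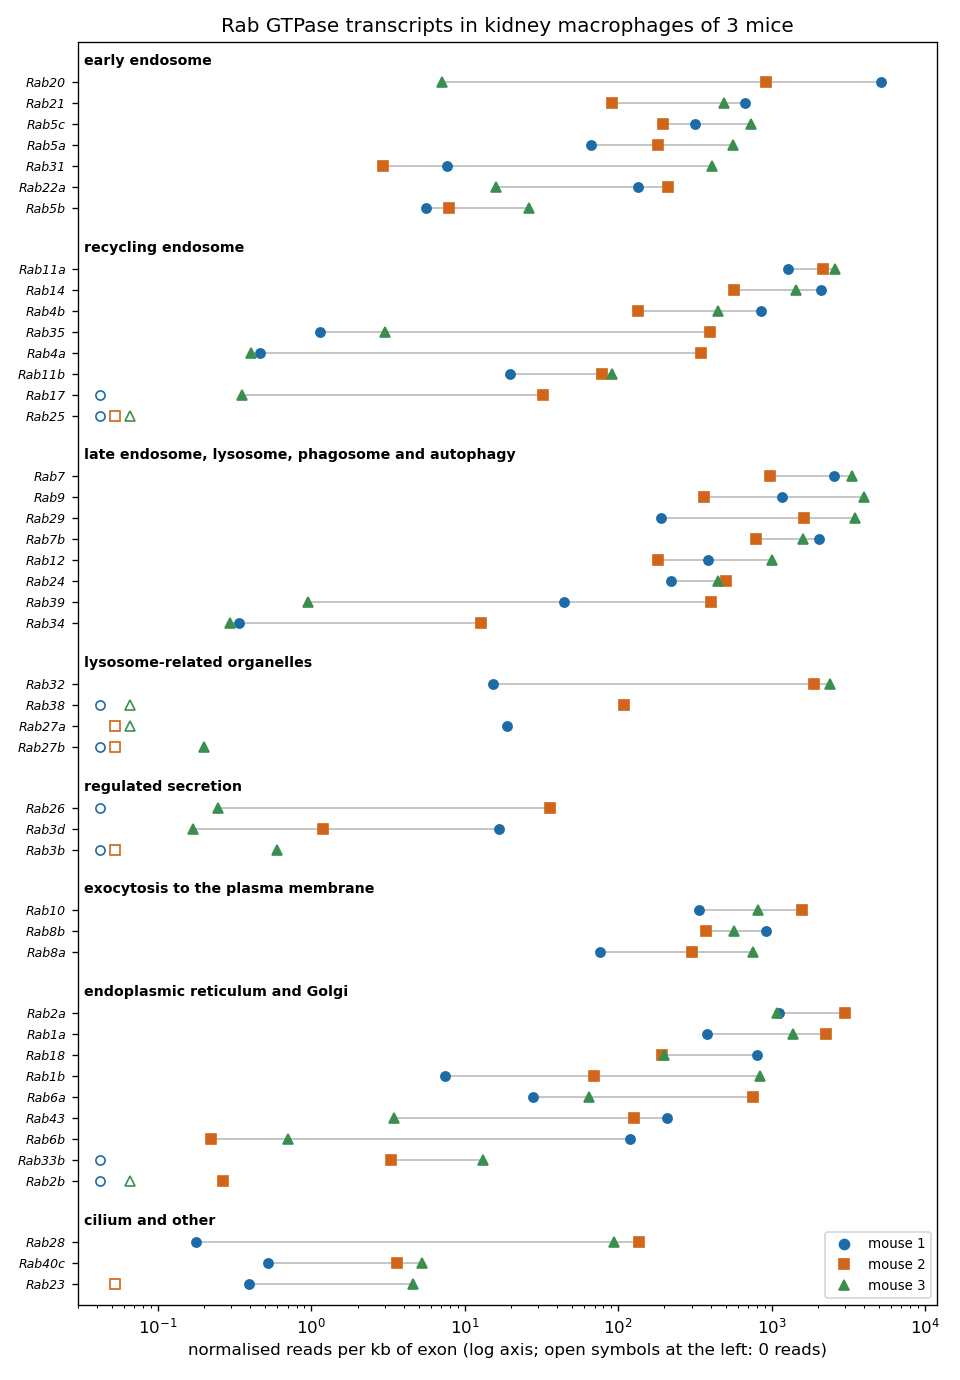
Normalised reads per kb of exon (log axis) for the 45 Rab GTPases in each of 3 mice, grouped by role. Filled symbols are single mice joined by a line, and open symbols at the left edge are mice with 0 reads. Rab7, Rab11a, Rab7b and Rab2a keep their 3 mice close together at a high level, while Rab20, Rab4a and Rab35 run over more than 100-fold.

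Among the 7 early endosome GTPases, 3 were above the library median and none was below. Rab5 is the master Rab of early endosomes and of newly closed phagosomes. Its form Rab5c had 695, 430 and 1598 normalised reads in mice 1, 2 and 3, and was 3.38 above the median on the log2 scale (SE 1.04, adjusted p = 0.00921). Rab5a had 350.0, 961 and 2951, and did not pass (2.47, SE 1.19, adjusted p = 0.102). The third form, Rab5b, was much lower, at 23.4, 33.3 and 110.0. In all 3 genes mouse 3 was highest, and for Rab5c mouse 2 was lowest. Rab21, which moves integrins through early endosomes, had 3375, 457 and 2474 normalised reads and was 3.18 above the median (SE 1.09, adjusted p = 0.0202).

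Rab20, found on macropinosomes and maturing phagosomes, differed most between mice among members with a mean of 1000 or more. It had 7138 normalised reads in mouse 1, 1286 in mouse 2 and 9.87 in mouse 3, the last resting on 14 reads, which is a 723-fold range. Its position above the median (3.28, SE 1.26, adjusted p = 0.0375) was lost without mouse 1 (0.94, adjusted p = 0.770) and without mouse 2 (2.35, adjusted p = 0.412). The sister genes Rab22a and Rab31, which work between endosomes and the trans-Golgi network, were high in different mice. Rab22a had 975, 1523 and 115 normalised reads, and Rab31 had 29.0, 11.1 and 1556. Neither passed the test.

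The promoters of Rab5a and Rab21 are shown because they hold, with Rab24, an 8-letter E-box form, TCACGTGA, that is known from genes of the lysosome and autophagy. Each run holds the 250 bases before the RefSeq start (GRCm38.p6), 5′ to 3′ on the gene's strand, with that motif in capitals. Rab5a lies at chr17:53478984-53479233 on the plus strand and Rab21 at chr10:115315592-115315841 on the minus strand.
Rab5a: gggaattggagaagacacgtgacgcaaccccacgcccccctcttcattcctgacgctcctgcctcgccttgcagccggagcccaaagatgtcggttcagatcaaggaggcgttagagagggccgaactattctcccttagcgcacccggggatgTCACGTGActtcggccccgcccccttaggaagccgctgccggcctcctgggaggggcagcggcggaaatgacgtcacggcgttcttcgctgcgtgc
Rab21: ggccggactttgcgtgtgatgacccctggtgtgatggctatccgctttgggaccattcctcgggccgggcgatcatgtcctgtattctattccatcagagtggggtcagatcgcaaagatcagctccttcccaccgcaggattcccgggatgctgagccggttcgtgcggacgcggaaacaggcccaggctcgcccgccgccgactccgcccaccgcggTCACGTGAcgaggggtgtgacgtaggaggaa
The motif starts 96 bases before the start in Rab5a and 31 before it in Rab21. In Rab24 it begins just past the start, in a part not printed. Among the 60 promoters of the 47 members that RefSeq's table holds, 5.0% carried it, against 0.974% of all 32851 promoters. It was singled out after the shares of 10 motifs had been seen, and a match is a description of letters, not of binding. The shorter CACGTG, which it contains, was in 16.7% of these promoters against 7.15% of all, CCGGAAG in 11.7% against 8.86%, GAGGAAGT in 5.0% against 3.20% and CCAAT in 40.0% against 37.4%. TATAAA (6.67% against 13.6%) and TGACTCA (1.67% against 5.20%) were less frequent. The members' windows were richer in G and C, with a median of 63.3% against 52.7%.

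Recycling GTPases held both the Rab with the most reads and the only one with none. Rab14, which works between recycling endosomes, Golgi and phagosomes, had 28322, 7663 and 19659 normalised reads. It made up 33.8%, 11.4% and 20.4% of all GTPase reads. Its exons sum to 13.6 kb, and per kb of these it ranked 9 of 56, but 1 of 56 per kb of its longest transcript, an alternative chosen after the data were seen. It was 5.12 above the median (SE 0.83, adjusted p = 7.86e-06). Rab11a, the Rab of the slow recycling compartment, had 3813, 6423 and 7706 normalised reads, the smallest spread among the GTPases with a mean of 1000 or more (SD 0.53 on the log2 scale), and was 5.81 above the median (SE 0.73, adjusted p = 1.40e-07). Its close relative Rab11b was at 121, 482 and 560.3, and did not pass (0.61, adjusted p = 0.798).

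Fast recycling is the work of Rab4 and Rab35. Rab4b was at 1675, 265 and 875 normalised reads and was above the median (3.44, SE 1.05, adjusted p = 0.00874). Rab4a gave 1 read in mouse 1, 1092 reads in mouse 2 and 1 read in mouse 3 (0.806, 606 and 0.705 normalised reads). Rab35, with 3.23, 1115 and 8.46, was also highest in mouse 2. Rab17, a Rab of polarised epithelia, had 0, 64.4 and 0.705. These 3 genes were highest in mouse 2, as were Rab26, Rab34 and Rab38. The proximal tubule, distal tubule and collecting duct sums given above were highest there too. Of the 40 GTPases with a mean of 10 or more, 14 (35%) were highest in mouse 2, against 34.0% of all such genes. The part of tubule RNA in the levels of these genes was not tested.

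Rab25, the third gene of the Rab11 group and known from epithelia, was at 0 reads in every mouse. Rab11a exceeded it per kb by at least 881-fold, taking the mouse with the lowest ratio and a floor of 3 reads in that library. The promoters of Rab14 and Rab25, the recycling Rabs with the most reads and with none, are shown with each CG in capitals, as 250 bases before the RefSeq start (GRCm38.p6), 5′ to 3′ on the gene's strand. Rab14 lies at chr2:35201121-35201370 and Rab25 at chr3:88548280-88548529, both on the minus strand.
Rab14: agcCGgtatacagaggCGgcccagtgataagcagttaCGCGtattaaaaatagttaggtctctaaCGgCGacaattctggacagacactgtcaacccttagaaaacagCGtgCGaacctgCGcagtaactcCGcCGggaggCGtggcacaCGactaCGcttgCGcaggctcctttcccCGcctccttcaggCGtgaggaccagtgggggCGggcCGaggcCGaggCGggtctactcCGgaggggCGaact
Rab25: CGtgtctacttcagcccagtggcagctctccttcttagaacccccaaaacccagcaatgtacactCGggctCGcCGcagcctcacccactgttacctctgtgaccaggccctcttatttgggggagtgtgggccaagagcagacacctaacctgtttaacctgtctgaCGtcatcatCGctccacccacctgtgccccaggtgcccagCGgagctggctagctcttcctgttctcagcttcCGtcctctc
The run of Rab14 holds 23 CG and that of Rab25 holds 8. Over the whole window of 300 bases, from 250 before to 50 after the start, the observed to expected CpG ratio was 0.969 in Rab14 and 0.371 in Rab25. This pair was chosen after its values were seen, and the contrast did not extend to the GTPases as a whole. The median ratio was 0.765 over 17 promoters of GTPases above the library median and 0.781 over 28 promoters of the other GTPases. Against all promoters, those of the members were rich in CpG (median 0.751 against 0.384), and 73.3% held GGGCGG, the letters of the GC box, against 35.7%.

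Of the 8 GTPases of late endosomes, lysosomes, phagosomes and autophagy, 6 were above the median and none was below. Rab7, which turns a late endosome or phagosome toward the lysosome, had 6599, 2547 and 8673 normalised reads. It was 5.88 above the median (SE 0.76, adjusted p = 1.97e-07). Rab7b, which returns cargo from late endosomes to the trans-Golgi network, had 9361, 3657 and 7448 and was 5.32 above (SE 0.80, adjusted p = 2.45e-06). Both genes were lowest in mouse 2.

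Rab9, which brings mannose-6-phosphate receptors back to the Golgi, had 2038, 629 and 6971 normalised reads, and was 5.12 above the median (SE 0.87, adjusted p = 1.56e-05). Rab29, a partner of the kinase LRRK2, had 277, 2378 and 5151, a range of 18.6-fold, and was 4.90 above (SE 0.87, adjusted p = 3.24e-05). Both were highest in mouse 3. Rab29 and Rab32, described next, had the same order of mice as the B cell marker Cd79b (lowest in mouse 1, highest in mouse 3). So did Rab1b, Rab5a, Rab5b, Rab8a, Rab11a, Rab11b, Rab33b and Rab40c. The part of B cell RNA in the levels of these genes was not tested. Rab12, tied to the breakdown of transferrin receptor, had 1173, 553 and 3031, and Rab24, tied to autophagy, had 443, 1013 and 904. Both passed (3.59, adjusted p = 0.00495, and 3.43, adjusted p = 0.00676), but not without mouse 3 (adjusted p = 0.204 and 0.120). Rab39, with 132, 1203 and 2.82 normalised reads, and Rab34, with 0.806, 30.5 and 0.705, did not pass.

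In the group of lysosome-related organelles, the storage organelles of pigment cells and granule-bearing leukocytes, 1 of 4 GTPases was above the median and 2 were below. Rab32 had 35.5, 4435 and 5588 normalised reads, low in mouse 1 alone. Its call (3.59, SE 1.14, adjusted p = 0.0118) was lost without mouse 2 (adjusted p = 0.344) or mouse 3 (adjusted p = 0.425). Rab38, its partner in pigment granules, was read in mouse 2 only, at 171. Rab27a, which docks secretory granules, was read in mouse 1 only, at 72.6 normalised reads from 90 reads, and Rab27b gave 3 reads, all in mouse 3. Both were called below the median, Rab27a not without mouse 2 (adjusted p = 0.243) or mouse 3 (adjusted p = 0.182). A difference this close to 0 depends on the added 1 and is no bound.

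Regulated secretion had no GTPase above the median. Rab3d, a Rab of secretory granules, had 70.2, 4.99 and 0.705 normalised reads, and Rab26 had 0, 102 and 0.705. Rab3b was called below it with 0, 0 and 3 reads. All 3 GTPases of exocytosis to the plasma membrane were above. None of these 3 was above with genes at 10 or more in every mouse as the reference. Rab10 had 1177, 5551 and 2845 normalised reads (4.46, SE 0.87, adjusted p = 0.000106). Rab8b had 4328, 1777 and 2706 (4.09, SE 0.93, adjusted p = 0.000647). Rab8a had 355, 1407 and 3546, and its call (2.92, SE 1.11, adjusted p = 0.0365) was lost without mouse 2 (adjusted p = 0.128) or mouse 3 (adjusted p = 0.495).

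Of 9 GTPases of the endoplasmic reticulum (ER) and Golgi, 3 were above the median and 1 was below. Rab1a, needed for transport from ER to Golgi, had 1447, 8533 and 5259 normalised reads and was 4.95 above (SE 0.82, adjusted p = 1.19e-05). Rab2a, which works at the same step and at the Golgi, had 2391, 6369 and 2319 and was 5.49 above (SE 0.76, adjusted p = 6.16e-07). Rab18, a Rab of ER and lipid droplets, had 5471, 1324 and 1362 (3.19, SE 1.07, adjusted p = 0.0168), and did not pass without mouse 1 (adjusted p = 0.309) or mouse 3 (adjusted p = 0.0753). Mouse 2 was highest for Rab1a and Rab2a, and mouse 1 for Rab18.

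The other ER and Golgi Rabs varied widely. Rab1b had 16.9, 157 and 1905 normalised reads, and Rab6a, a Rab of retrograde Golgi transport, had 104, 2821 and 240.3. Rab6b had 601, 1.11 and 3.52, and Rab43 had 1156, 702 and 19.0. None of these 4 passed, and each of the 3 mice was highest for at least 1 of them. Rab33b, a Golgi Rab tied to autophagy, had 0, 11.7 and 46.5. Rab2b was called below the median on 2 reads, both in mouse 2.

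In the last group, Rab28, a Rab of cilia, had 0.806, 615 and 427 normalised reads, Rab40c, which carries a SOCS box, had 1.61, 11.1 and 16.2, and Rab23, a brake on Hedgehog signalling, had 3.23, 0 and 38.1. Only Rab23 was called, below the median (-5.69, SE 1.23, adjusted p = 0.000358), and not without mouse 2 (adjusted p = 0.102).

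Of the 20 calls above the median, 10 held without each mouse in turn. These were Rab7, Rab7b, Rab9, Rab29, Rab11a, Rab14, Rab1a, Rab2a, Rab8b and Rab10. Besides the losses given above, Rab21 did not pass without mouse 1 (adjusted p = 0.268) or mouse 3 (adjusted p = 0.237), nor Rab4b without mouse 1 (adjusted p = 0.189) or mouse 3 (adjusted p = 0.115). Rab5c did not pass without mouse 3 (adjusted p = 0.232), and Rab3il1 not without mouse 1 (adjusted p = 0.0709). Calls were also gained. Without mouse 2, where their reads lay, Rab4a (adjusted p = 0.0219), Rab17 (0.00307), Rab26 (0.000369) and Rab34 (0.00554) were below the median. Without mouse 1, Rab3d (0.00178), Rab6b (0.000159) and Rab3gap1 (0.0400) were, and without mouse 3, Rab33b (0.0117).

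The order of the levels was not fixed from mouse to mouse. Ranked by mean level per kb, the 20 highest members formed 19 neighbouring pairs. The ranges over mice overlapped in all 19, and 1 pair (Rab1a above Rab10) had the same order in all 3 mice. Still, 4 members (Rab7, Rab7b, Rab11a and Rab2a) were among the 10 highest in every mouse. The 5 highest GTPases of a mouse made up 56.1% ± 5.01 of the summed GTPase level per kb (SD, n = 3).

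**Figure D2:**
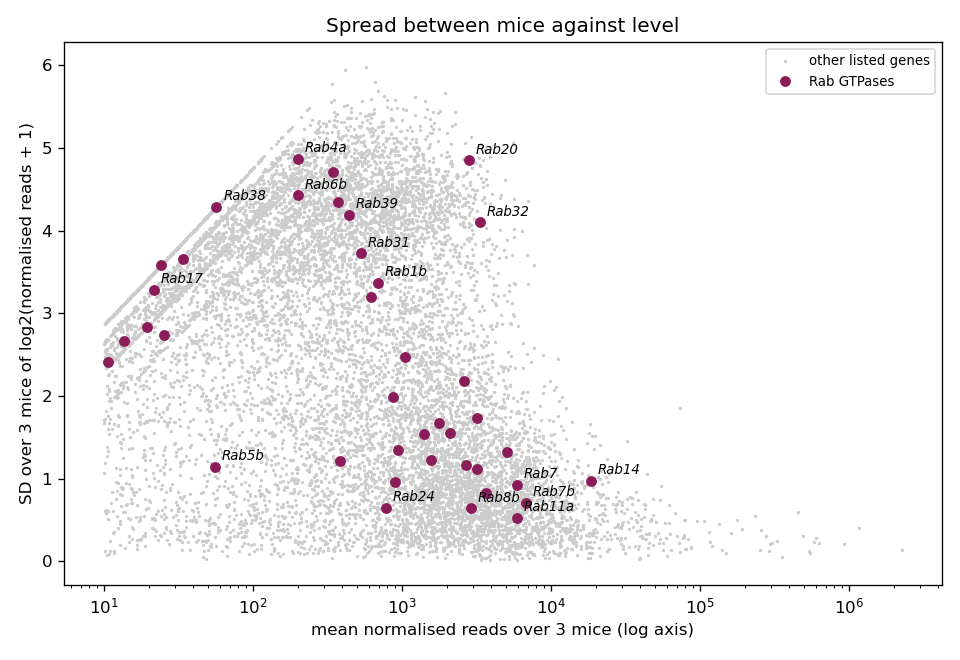
SD over 3 mice of log2(normalised reads + 1) against the mean of normalised reads (log axis), for listed genes with a mean of 10 or more. Purple points are the 40 Rab GTPases among them and grey points are the other genes. Rab11a, Rab7b, Rab8b and Rab14 lie under an SD of 1, and Rab20 and Rab32 lie above 4 at means over 1000.

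Some GTPases were steady between mice and others were not. Over the 40 GTPases with a mean of 10 or more, the median SD was 2.09 on the log2 scale, against 2.55 over all such genes. With 1 mouse left out, the GTPase value was lower each time, at 1.29 without mouse 1, 1.55 without mouse 2 and 1.66 without mouse 3. These are SDs over 2 mice, and no such value was taken over all genes. At means of 1000 or more, the median SD was 1.28 over 18 GTPases and 1.12 over all genes, and 33.3% of GTPases and 46.0% of all genes were under an SD of 1. Those 6 GTPases were Rab11a (0.53), Rab8b (0.64), Rab7b (0.71), Rab2a (0.83), Rab7 (0.93) and Rab14 (0.97).

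At a mean of 100 or more, 20 of 39 members differed by more than 10-fold between the highest and lowest mouse, against 54.9% of all such genes. Among them were 14 of 31 GTPases, which is 45.2%. Counted as presence, 6 of the 45 GTPases (13.3%) reached 10 normalised reads in mouse 2 alone, 3 (6.67%) in mouse 1 alone and 1 (2.22%) in mouse 3 alone. Of all listed genes 11.6%, 4.63% and 4.85% did so in mouse 2, mouse 1 and mouse 3. GTPases above 0 numbered 37, 40 and 41 in mice 1, 2 and 3. Across the 45 GTPases, log2 levels of different mice had a Pearson correlation of 0.66 to 0.71, and across all genes tested of 0.62 to 0.65. These are descriptions across genes, which are not independent.

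Ratios between related Rabs were taken within each mouse, so that the library's scaling drops out. Of 16 pairs with both genes in the table, 10 kept 1 direction in every mouse and 6 did not. With 3 mice the exact two-sided sign-flip permutation test cannot go below 0.25, so that each ratio is read against its SD. How reads that fit more than one of these similar genes were counted is not stated in the labels.

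**Figure D3:**
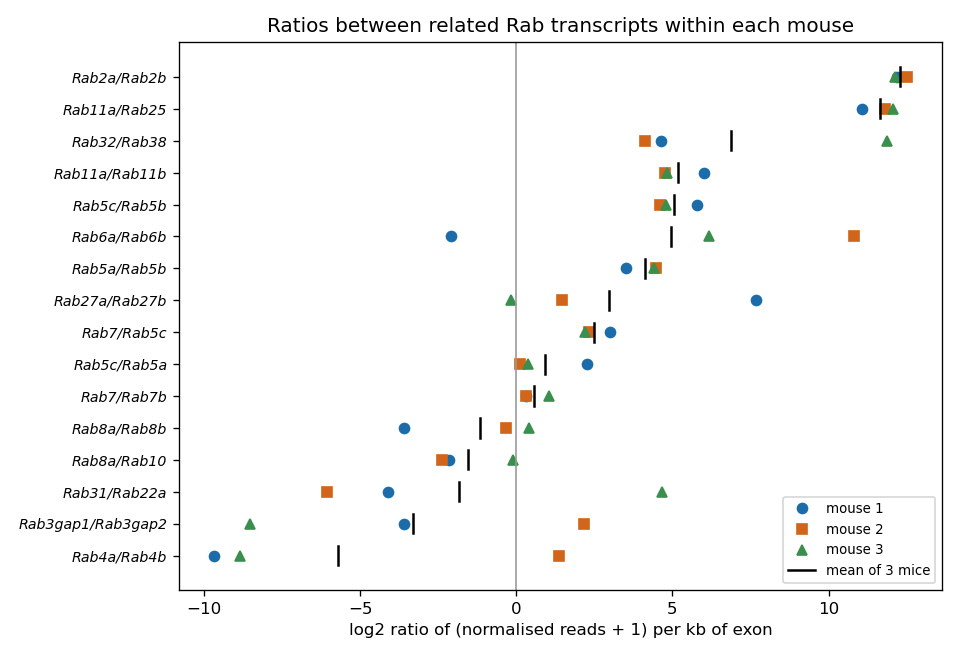
Log2 ratio of (normalised reads + 1) per kb of exon for 16 pairs of related Rab genes. Symbols are the 3 mice, black bars are their means, and the vertical line marks equal levels. Rab5c/Rab5b and Rab11a/Rab11b lie close together well to the right of 0, while Rab6a/Rab6b and Rab4a/Rab4b fall on both sides of it.

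Rab5b was the minor Rab5 in all 3 mice. It held 1.43%, 2.05% and 1.99% of the summed Rab5 level per kb, Rab5c held 81.5%, 50.7% and 55.4%, and Rab5a the rest. The log2 ratio of Rab5c to Rab5b was 5.05 ± 0.63 (SD, n = 3) and that of Rab5a to Rab5b was 4.14 ± 0.53. Rab5c and Rab5a were less far apart (0.91 ± 1.17), by 2.25 in mouse 1, 0.10 in mouse 2 and 0.38 in mouse 3. Rab7, which takes over from Rab5 as endosomes mature, exceeded Rab5c by 2.50 ± 0.43 and Rab7b by 0.56 ± 0.42. Without division by exon length the orders of Rab5c over Rab5a (-0.35) and of Rab7 over Rab7b (-0.27) turned. Rab11a exceeded Rab11b by 5.19 ± 0.70.

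Rab10 exceeded Rab8a by 1.54 ± 1.26, and by 0.10 in mouse 3, where Rab8a had more normalised reads (3546 against 2845). Rab32 was above Rab38 in each mouse (6.87 ± 4.34), and Rab2a far above Rab2b, which had no more than 2 reads in any mouse. The 6 pairs of mixed direction were Rab4a/Rab4b, Rab8a/Rab8b, Rab27a/Rab27b, Rab22a/Rab31, Rab6a/Rab6b and Rab3gap1/Rab3gap2. Of these, Rab27a/Rab27b gives no direction of its own in mouse 2, where both genes had 0 reads and exon lengths alone set the ratio, and rests on 3 reads in mouse 3. For Rab6 the dominant gene changed outright. Rab6b took 81.1% of the summed level of both genes per kb in mouse 1, but 0.0291% in mouse 2 and 1.07% in mouse 3. Rab4b took 99.9% of the Rab4 level in mice 1 and 3, and Rab4a took 71.9% in mouse 2.

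Of the members that are Rab regulators or effectors, 7 of the 8 with a mean of 10 or more were highest in mouse 1, and Rab11fip3 was highest in mouse 2. Of all such listed genes 34.0% were highest in mouse 1, and of the wider lists of regulators and effectors 42.2%. Rab3il1, which loads Rab3 and Rab8 with GTP, had 6855, 1942 and 2931 normalised reads and was the only one above the median (3.82, SE 0.97, adjusted p = 0.002). Rab3ip, the Rab8 exchange factor also called Rabin8, had 799, 463 and 235, and did not pass (2.03, SE 1.26, adjusted p = 0.216). Rab3gap1 and Rab3gap2 form one complex that turns Rab3 off and loads Rab18, yet had 167, 122 and 0.705 against 1886, 23.9 and 579 normalised reads.

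Rab11fip1 to Rab11fip5 bind Rab11 and link it to motor proteins and to the membrane. Rab11fip1 had 708, 3.33 and 47.2 normalised reads, Rab11fip2 had 1207, 371 and 45.1, and Rab11fip3 had 99.2, 620 and 1.41. Rab11fip5 had 221, 57.7 and 14.8. Mouse 1 was highest for Rab11fip1, Rab11fip2 and Rab11fip5, and lowest for Rab11a. Rab11fip4 gave 2 reads, in mouse 1, and was called below the median.

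The antisense RNAs had orders between mice that differed from those of their partners in part. Rab10os had 8039, 350 and 369 normalised reads, while Rab10 had 1177, 5551 and 2845. Mouse 1 was thus highest for the antisense RNA and lowest for the GTPase. In GENCODE M21 the 2 genes lie on opposite strands and share 143 bases of exon. Rab26os had 60.5, 376 and 3.52 and was highest in mouse 2, as was Rab26. It lies inside the Rab26 gene (497 bases) and shares 0 bases of exon with it. Whether the counting used strand is not stated in the labels, so that reads of overlapping parts cannot be told apart.

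The wider Rab cycle was taken from lists of 119 regulators and effectors outside the symbol rule, of which 101 were in the table and 98 were tested. Of these, 21 were above the library median and 13 below, against the 23.5% and 17.3% of all genes. With genes at 10 or more in every mouse as the reference, 4 were above and 23 below, where 10.6% and 27.4% of all genes were. Without mouse 1, 11 of 98 were above (11.2%, against 20.05% of all genes), and without mouse 3, 7 of 97 (7.22%, against 18.3%). The proteins that attach lipid anchors to Rabs, escort them or extract them from membranes had 6 of 8 above and 0 below, with a median difference of 3.83. The weakest of these 6 calls was just under the threshold (adjusted p = 0.0499). This list was not counted apart with the other reference or without a mouse. Rabac1, a membrane protein that binds lipid-anchored Rabs, had 3217, 10310.5 and 8401 normalised reads (6.97, SE 0.64, adjusted p = 3.31e-10). Gdi2, which extracts inactive Rabs from membranes, had 26538.5, 17034 and 16099. Rabggtb, the beta subunit of the enzyme that adds the lipid, had 833, 1231 and 4879. All 3 of these passed.

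Exchange factors were mixed, with 5 of 26 tested above and 2 below. The 4 highest per kb were Dennd1c (3620, 275 and 4869 normalised reads), Dennd4b (4747, 1128 and 2519), Dennd5a (2265, 5515 and 2269) and Hps4 (2587, 672 and 1288), and all 4 were above the median. Hps4 is a subunit of BLOC-3, which loads Rab32 and Rab38. Dennd2d and Dennd3 were at 0 in every mouse. Among GTPase-activating proteins 3 of 27 were above and 5 below. Tbc1d23 (1414, 3876 and 11951), Tbc1d1 (6726, 783 and 3024) and Tbc1d8 (2508, 3164 and 1767) were above, and Tbc1d10a, with 12.1, 12.2 and 4138, did not pass.

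Of 30 effectors tested, 4 were above and 5 below, and Rilpl1 was at 0 in every mouse. Vps41, a subunit of the HOPS tether of late endosomes and lysosomes, had 8709, 258 and 3769 normalised reads and was above. Myo5a, a motor for Rab27 and Rab11 cargo, had 10889, 3582 and 7663, and Appl1, an effector of Rab5, had 7224, 738 and 2219, and both were above. Rilpl2, which binds phosphorylated Rab8 and Rab10, had 15.3, 550.0 and 4779 and did not pass. Of 7 BLOC subunits, which build lysosome-related organelles, 3 were above and 1 below. Bloc1s1 (2406, 1807 and 2597), Bloc1s2 (1298, 1023 and 1560.5) and Hps3 (8453, 1662 and 2534) were above, and Bloc1s6 (4044, 674 and 8.46) did not pass.

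**Figure D4:**
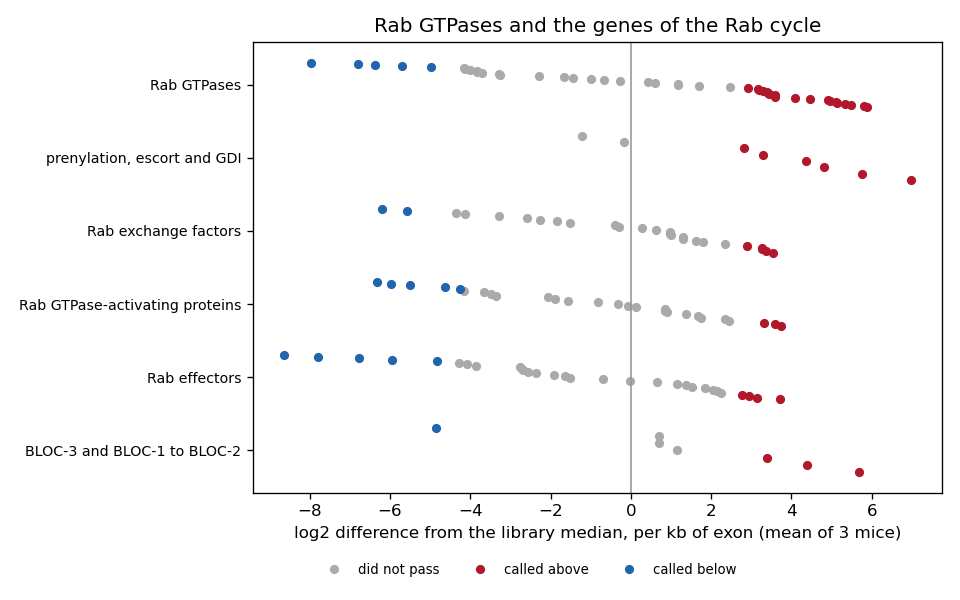
Log2 difference from the library median per kb of exon, as the mean of 3 mice, for the 44 Rab GTPases tested and for 5 lists of genes of the Rab cycle. Each point is a gene, in red if called above, in blue if called below and in grey if it did not pass, and points of a list are spread in height only for legibility. The prenylation, escort and GDI list has 6 of 8 genes in red, where 23.5% of all genes tested were above. In blue are 5 of 30 effectors and 5 of 27 GTPase-activating proteins, where 17.3% of all genes tested were below.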

How the data were processed

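RNA-seq libraries of sorted kidney macrophages from 3 mice were analysed. The deposited table holds a normalised signal for each gene. HTSeq 0.5.4, DESeq 1.18.0 and build mm9 are named in the submitters' processing notes, as the authors' tools for counting and for scaling. Aligner and annotation: not given in the sources used here. From the values, each is a count divided by a library factor, with 1 added. That 1 was subtracted, after which 100% of the lower values above 0 were whole multiples of a library's step (tolerance 0.05 of a step). Higher values were not checked in this way, and their reads were rounded to whole numbers. The 3 libraries, tested together, differed beyond Poisson noise in 98.0% of 12562 genes with at least 5 reads expected. That test does not compare single pairs of libraries. Between pairs, log2 levels of all genes tested had Pearson correlations of 0.62 to 0.65, so that none was a copy of another. Dates stood in place of 20 symbols of the table.

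Exon lengths came from GENCODE M21, a later build than mm9, by gene identifier (99.6% of genes), and promoters from RefSeq (GRCm38.p6), 250 bases before to 50 after each start, matched by symbol for 47 of 56 members. Log2((value + 1)/kb), less its median over all genes tested in the same library, was fitted with limma 3.58.1 in R 4.3.3 (intercept only, trended prior, genes above 0 in at least 1 mouse, two-sided). A fold on this scale understates differences of low genes. Python 3.11.15, numpy 2.4.6, pandas 2.3.3 and matplotlib 3.10.9 did the rest. The fit was tested on simulated data. A first simulation, with all genes at one level, recovered no changed gene by adjusted p and was replaced by one with the real genes' levels and spread, which recovered some of the changed genes and not all. Motifs were searched on both strands of the windows: the E-box CACGTG, its longer form TCACGTGA, the TATA box TATAAA, the GC box GGGCGG, the PU.1 motif GAGGAAGT, the ETS motif CCGGAAG, the AP-1 motif TGACTCA, the CCAAT box, the NRF1 motif, and an extended E-box that contains TCACGTGA.

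Members, roles, pairs and lists were chosen with earlier results of these data known. The split into GTPases, regulators and antisense RNAs, the counts of genes present in 1 mouse, the spread by level and the promoter comparison were added after the table was seen. Members named with the value in every mouse were the 20 highest per kb, both genes of each pair, and those with a mean of 100 or more and a range above 10-fold, and of each list the 4 highest and any gene at 0. One gene that this rule names is not reported here. Pairs with a gene outside the table (4 of 20) were left out. Pseudocounts of 0.1 and 10, other filters, lengths, scalings and references, voom, and leaving out each mouse were tried.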

Additional observations from a re-analysis of the deposited data

How the results depend on the processing

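Of the 20 members above the library median, 6 (Rab7, Rab7b, Rab9, Rab11a, Rab14 and Rab2a) passed under all 13 alternatives, and of the 6 below it, 4 did in every alternative that tested them. The choice of reference moved most. With the median of genes at 10 or more in every mouse, 6 members were above and 13 below, 6 GTPases above and 11 below, and 4 regulators and effectors above and 23 below, and Rab8a turned to -0.24 (adjusted p = 0.818). Without a trended prior, 11 of 55 members, 10 GTPases (22.7%) and 7 regulators (7.14%) were above, where 16.3% of all genes were. Counts below the median were 11 members and 9 GTPases with a pseudocount of 10 (17.3% of all genes), 10 members and 9 GTPases without division by exon length (21.9%), and 3 GTPases with limma-voom on recovered reads (11.6%). With genes at a mean of 10 or more only, 2 members, both GTPases, were below. Of the regulators 11 were above and 4 below, where 22.7% of all genes were above and 4.32% below. Fewer low genes were tested there, and the library median was taken over the tested genes alone. The cause of these shifts was not tested.

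Leaving out 1 mouse in turn gave 12 to 17 members above the median (12 without mouse 3) and 4 to 7 below, 11 to 16 GTPases above and 3 to 6 below (both lowest without mouse 3), and 7 to 19 regulators and effectors above (11 without mouse 1, 7 without mouse 3) and 9 to 12 below. Of all genes 20.05%, 23.6% and 18.3% were then above, and 11.45%, 14.8% and 12.1% below, without mice 1, 2 and 3. The median SD of the GTPases, taken over 2 mice and so not like that over 3, was 1.29 (without mouse 1) to 1.66 (without mouse 3). With a mouse left out, 2 to 3 GTPases were at 0, and 11 to 13 pairs kept 1 direction. The last 2 counts can only stay or rise when a mouse is left out, so that they are no check of the result. Of 16 pairs, 10 kept 1 direction in the main setting. There were 7 without division by exon length, 9 per kb of the longest transcript and 11 with a pseudocount of 10. Without division by exon length, the log2 ratio of Rab5c to Rab5a turned to -0.35 and that of Rab7 to Rab7b to -0.27, so that the order of these genes rests on their lengths. No paired analysis was possible because there is a single group. In a mouse, 7 to 12 of the 45 GTPases had 3 reads or fewer, so that their levels there rest on few reads. The cause of these low counts was not tested.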
